A study of Danio rerio with 16 samples.

Results

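Genes of the TGF-β, BMP and myostatin pathway were followed in fast muscle of adult zebrafish that had or had not been exercised. They were taken by gene symbol: a probe belonged to the pathway when the RefSeq accession printed for it named a zebrafish gene of the tgfb, tgif, smad, bmp, gdf, inhb, acvr, mstn, fst, nog, chrd, grem, ski or id1 to id4 families, with ltbp also searched. This gave 45 genes on 64 probes, of 5952 genes named in this way and 43803 non-control probes in all. By role they comprised 16 ligands, 6 secreted antagonists, 7 receptors, 10 Smads and nuclear partners, 5 targets and bmp2k, a kinase that shares the BMP name.

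Both groups were wild-type fish from a pet shop. Exercised fish (n = 8) swam at 0.4 m/s for 6 h a day on 5 days a week, over 4 weeks and 20 experimental days. Non-exercised fish (n = 8) were held at 0.1 m/s. Total RNA of dorsal fast muscle from each fish was labelled with Cy3 and hybridised to its own single-colour Agilent array, so a fish is the replicate throughout. Each group had a swim tunnel, a scan day and 2 slides of its own (slides 3 and 4 for exercised fish, slides 1 and 2 for non-exercised fish, 4 arrays each), so training cannot be told apart from tunnel, scan day or slide.

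Ligands of this superfamily are secreted dimers that bind pairs of type I and type II receptor kinases. Receptors for TGF-β, activin and myostatin phosphorylate Smad2 and Smad3, receptors for BMPs phosphorylate Smad1 and Smad5, and the activated Smads enter the nucleus and regulate targets such as the id genes. Smad6 and Smad7 inhibit the receptors, while follistatin, noggin, chordin and gremlin bind ligands outside the cell. In mammals myostatin is a secreted inhibitor of muscle growth, and the BMP branch is known to favour muscle mass.

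Levels are given as the log2 of the background-subtracted signal over the 75th percentile of the array, and differences as exercised minus non-exercised on that log2 scale. They compare fish for 1 probe, not genes with each other. A probe was called where limma's moderated test gave a Benjamini-Hochberg adjusted p under 0.05 over all 43803 probes, and a gene is represented by its brightest probe. A spot is called detected where the scanner software flagged it as well above background, also where the spot was dropped from the fit as an outlier. In whole muscle, a lower level in each cell and fewer cells that express a gene cannot be told apart.

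Some arrays stood apart. Slide 4, with exercised fish 5 to 8, had the fewest detected probes: 30.1% of all probes were detected there on average, against 48.3% on slide 3, 41.2% on slide 1 and 42.8% on slide 2. Exercised fish 1 had a mean level of fast muscle markers of 1.76, against 5.57 to 7.14 in the other exercised fish and 5.22 to 7.94 in non-exercised fish. Of 8 fast muscle markers with a probe, 7 were detected on all 16 arrays. None of those 7 was called, with differences from 0.09 (tnnt3b) to 1.07 (ckma). The other, tnnt3a, was called lower (adjusted p = 0.0135, detected on none of the exercised and 7 non-exercised arrays). Of 7 fibroblast markers 2 were called higher and none lower, with mean levels of 1.68 to 3.65 in exercised fish and 1.38 to 3.81 in non-exercised fish. None of the 5 blood markers was called, with mean levels of 0.82 to 4.17 in exercised fish and 0.79 to 2.96 in non-exercised fish. Their median difference was 0.97, and hbaa1 (1.56) and hbba1 (1.32) lay near the threshold (adjusted p = 0.054 and 0.055 in limma). None of the 5 immune, 5 skin or 3 satellite cell markers was called, with median differences of -1.01, 0.25 and 0.34. The 1 endothelial marker with a probe, cdh5, was detected on no array, and the liver gene apoa1a, detected on 1 exercised array, was called higher (adjusted p = 0.0482). The part of these markers in the results was not tested. Results without exercised fish 1 are given for the counts of called genes and for mstnb, skia, smad5, tgfb1a and tgfb2 only.

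Of the 45 pathway genes 1 passed the threshold. Myostatin b (mstnb) was called higher in exercised fish, and none of the 45 genes was called lower. Over all RefSeq-named genes 6.22% were called and 3.21% called higher, so 1 of 45 is not a larger share than the background. By probe the count was 1 of 64, where 6.37% of all probes were called and 4.58% were called higher. Among the 21 pathway genes that were detected on at least 8 arrays, 1 was called, where 7.47% of such named genes were called and 2.69% called higher. At an unadjusted p under 0.05 there were 5 of 45 genes (11.1%), against 23.0% of all named genes.

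The median difference of the 45 genes, undetected ones included, was 0.16, beside 0.26 over all probes and 0.07 over all named genes. For the 21 genes on at least 8 arrays it was 0.00, with 11 genes above 0 and 10 below, beside a median of -0.15 over named genes detected as often. The 75th percentile scaling leaves the median of all probes 0.26 above 0, and a median shift in its place brings it to 0.01. Of the 2790 called probes 71.9% were higher with the main scaling, and between 49.7% and 63.7% with the 5 other background corrections and scalings. Without exercised fish 1, 2 of the 45 genes were called higher (mstnb and bmp4) and none lower, where 9.43% of named genes were called and 4.42% called higher.

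Detection differed between the roles. Of the 16 ligands, 11 were detected on none of the 16 arrays and only mstnb, tgfb2 and tgfb3 on 14 or more. Of the 10 Smads and nuclear partners, 9 were detected on at least 8 arrays and none was undetected throughout. Of the 6 antagonists and the 7 receptors, 3 each reached 8 arrays, as did 3 of the 5 targets. In total 24 genes were detected on at least 1 array in both groups, 6 in 1 group only and 15 in neither. Those 15 are 33.3% of the 45 genes, where 16.3% of all named genes were detected on no array. On at least 8 arrays the shares were 46.7% of the 45 genes and 60.5% of named genes. The 6 include bmp5 and bmp2k, whose only detected spot was an outlier dropped from the fit, and over the spots that were kept the counts were 24, 4 and 17.

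An exercised array had 10 to 25 of the 45 genes detected (median 19.5), and a non-exercised array 18 to 25 (median 22.0). The low counts all came from slide 4, with 10 to 17 genes, while the exercised fish of slide 3 had 22 to 25. In all, 19 genes were detected on fewer exercised than non-exercised arrays and 3 on more (19 and 1 over the spots that were kept). The same count over all named genes was not made. Over all probes, 39.2% were detected on an exercised array on average and 42.0% on a non-exercised array.

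**Figure D1:**
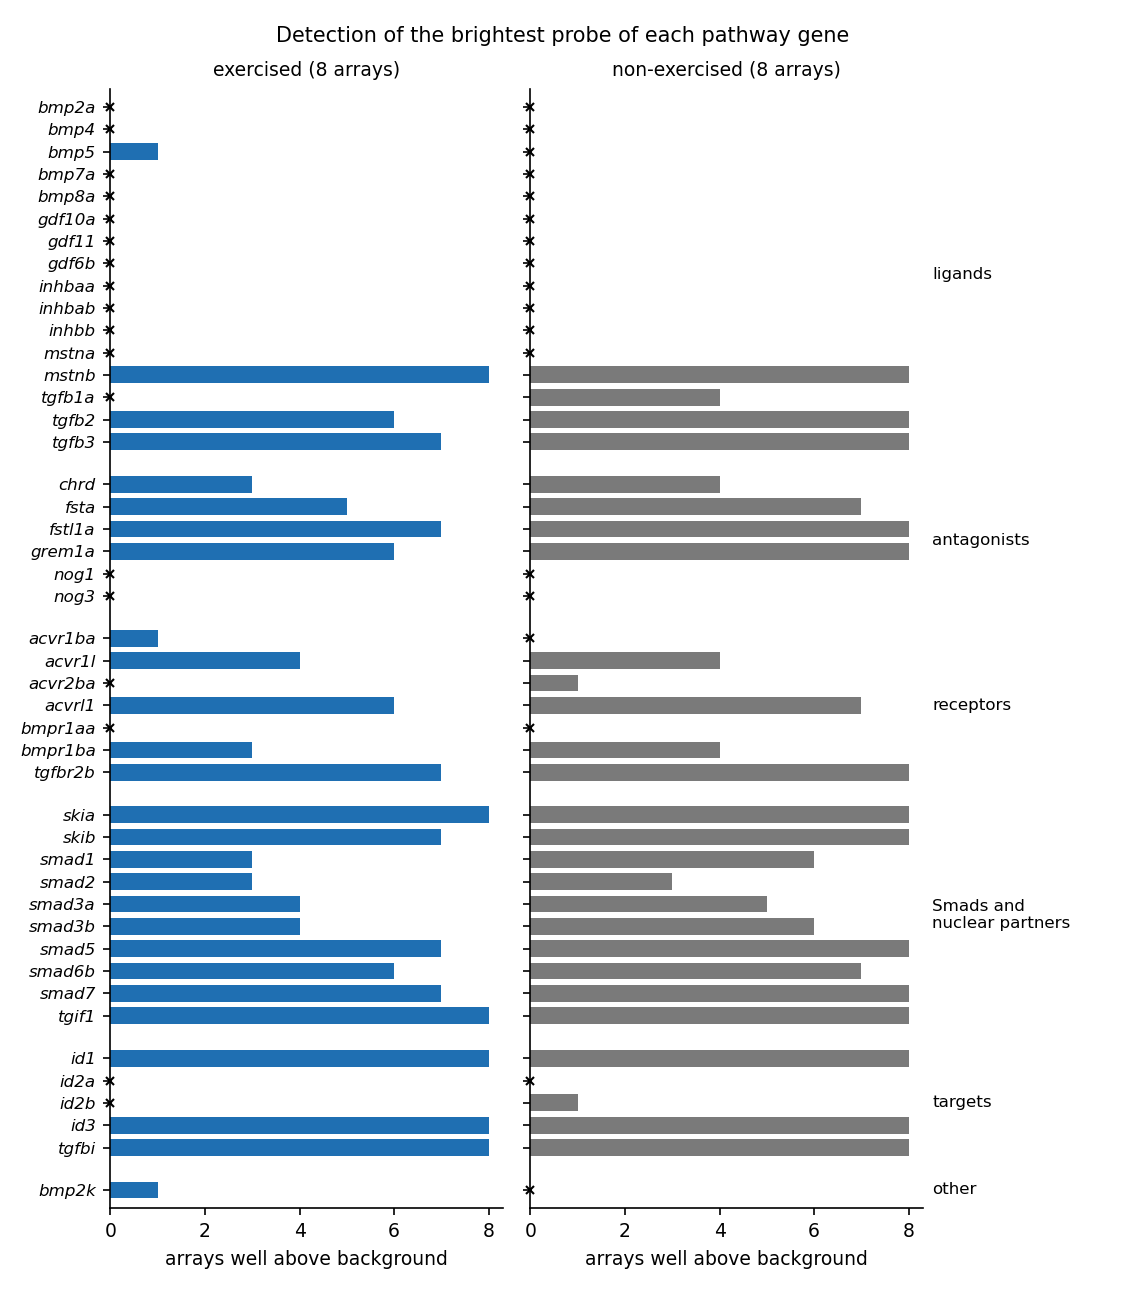
Number of arrays on which the brightest probe of each of the 45 pathway genes was detected (x axis, 0 to 8 arrays), for exercised fish (left) and non-exercised fish (right), with genes grouped by role; a cross marks 0 arrays. Most ligands were at 0 in both groups, whereas all 10 Smads and nuclear partners were detected in both groups.

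Among the ligands, mstnb was the only called gene and the only one detected on all 16 arrays. Its brighter probe, A_15_P112008, read 1.81, 3.24, 2.19, 3.43, 1.91, 1.84, 1.74 and 2.69 in exercised fish 1 to 8. In non-exercised fish 1 to 8 it read 0.16, 1.94, -0.04, 2.26, 0.75, -1.12, -0.94 and 1.68. All 8 exercised fish lay above the non-exercised mean, but the groups overlapped: 3 exercised fish exceeded every non-exercised fish, and non-exercised fish 2, 4 and 8 reached the exercised range or came close to it. The means were 2.36 ± 0.68 in exercised fish and 0.59 ± 1.29 in non-exercised fish (SD, n = 8 each). The difference was 1.77 ± 0.48 (SE; 95% confidence interval 0.76 to 2.78), or 3.41-fold, with an adjusted p = 0.0335 in limma.

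The other mstnb probe, A_15_P114781, was dim and detected on the 4 exercised arrays of slide 3, none of slide 4 and 2 non-exercised arrays. It ranged from -2.69 to 0.29 (median -1.52) in exercised fish and from -4.33 to -1.09 (median -3.53) in non-exercised fish. The difference of 1.61 ± 0.55 was close to that of the brighter probe, but its adjusted p was 0.0907. By slide the difference was 2.27 on slide 3 and 0.96 on slide 4, where the probe was undetected. Most non-exercised spots of this probe were also undetected, so the correlations below include signals at background. Across fish the probes followed each other within each group, with Pearson r = 0.947 and Spearman rho = 0.905 over the 8 exercised fish (exact permutation p = 0.000223 and 0.00456) and r = 0.931 and rho = 0.833 over the 8 non-exercised fish (exact permutation p = 0.00127 and 0.0154). With both groups tested, the adjusted p for r was 0.000446 and 0.00127 and for rho 0.00913 and 0.0154 by exact permutation. Without the 2 fish farthest from the median, r was 0.740 in exercised fish and 0.895 in non-exercised fish (n = 6 each). The spread of mstnb among fish of 1 group was therefore shared by both probes on the array. Both probes of a fish were read on the same array, and the scaling subtracted the same value from both. How much of the shared spread came from that value was not tested.

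**Figure D2:**
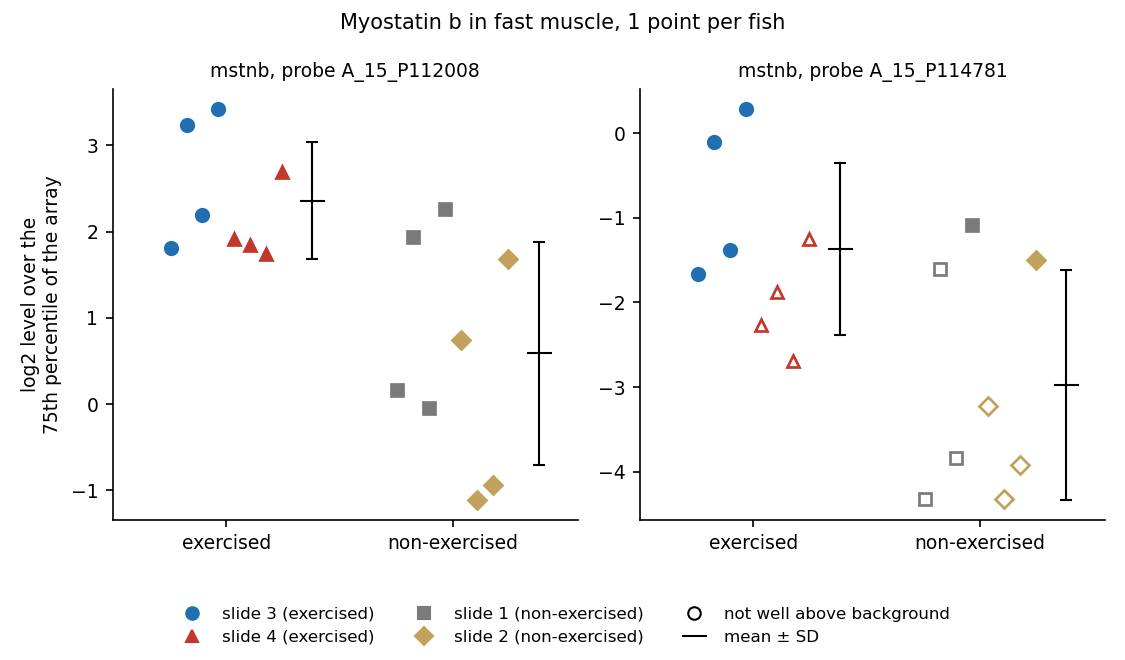
Level of mstnb in each fish (y axis, log2 over the 75th percentile of the array) for its 2 probes, with exercised fish left of non-exercised fish, symbols for the slide, open symbols where the spot was not detected, and the mean ± SD (n = 8). For A_15_P112008 the exercised fish lie between 1.74 and 3.43 and the non-exercised fish between -1.12 and 2.26.

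The mstnb call was lost under several alternatives. The difference was 2.08 in the exercised fish of slide 3 and 1.46 in those of slide 4 against all non-exercised fish, so both slides lay in the same direction, with adjusted p = 0.0731 and 0.0674. With the slide as a random block the adjusted p was 0.541. That fit called 0.0504% of all named genes higher and 0% lower, beside 3.21% and 3.01% in the main fit. Leaving out each fish in turn gave differences of 1.53 to 2.01, and the call held in 7 of 16 cases (adjusted p 0.0160 to 0.0764). It was lost without exercised fish 2, 3, 4 or 8 (adjusted p 0.0740, 0.0534, 0.0692 and 0.0569). It was also lost without non-exercised fish 1, 3, 5, 6 or 7 (adjusted p 0.0625, 0.0764, 0.0508, 0.0622 and 0.0732). The share of all named genes called higher moved as well. It was 2.50% to 4.42% where the mstnb call held and 1.80% to 2.64% where it was lost, beside 3.21% in the main fit. Without exercised fish 1 the difference was 1.85 with an adjusted p of 0.0268.

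Arrays also differed in brightness, the log2 75th percentile of the processed signal that is subtracted in the scaling. Brightness averaged 9.50 ± 0.61 in exercised fish and 9.30 ± 0.64 in non-exercised fish (SD, n = 8 each). Among non-exercised fish the brighter mstnb probe fell with brightness (Pearson r = -0.850, adjusted p = 0.0120 by exact permutation). By the same test Spearman rho was -0.81 (adjusted p = 0.0871), and r was -0.641 without the 2 arrays farthest from the median brightness (n = 6). Among exercised fish r was -0.395 (adjusted p = 0.460), and 0.105 without the 2 farthest arrays (n = 6). For the second probe r was -0.628 in non-exercised and -0.286 in exercised fish. Brightness is subtracted from the level, which can by itself push r below 0 where a signal rises less than brightness does. Whether it did so here was not tested. These correlations therefore cannot show whether the mstnb signal depends on brightness. With brightness as a covariate, a fit chosen after the data had been seen, mstnb differed by 1.99 with an adjusted p = 0.00230 in limma. This fit used 1 slope for both groups, and it called 7.96% of named genes higher, beside 3.21% in the main fit.

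The other myostatin gene, mstna, was detected on no array of either group. Its signal ranged from -5.62 to -2.05 (median -3.93) in exercised fish and from -4.97 to -3.43 (median -4.19) in non-exercised fish, and no fold is given. The same held for gdf11, the closest relative of myostatin in mammals, at -4.69 to -1.53 (median -3.30) in exercised fish and -4.79 to -2.14 (median -3.38) in non-exercised fish. Neither gene passed the test (adjusted p = 0.699 for mstna and 0.735 for gdf11). A change of either gene was not detectable at this signal.

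The 3 TGF-β genes behaved differently in detection. The tgfb2 probe was detected on 6 exercised and 8 non-exercised arrays, with levels of -2.55 to -0.39 (median -1.11) in exercised fish and -1.59 to -0.34 (median -1.12) in non-exercised fish. The groups overlapped almost fully, and the difference was 0.01 ± 0.30 (95% confidence interval -0.61 to 0.63, adjusted p = 0.993). The tgfb3 probe was detected on 7 and 8 arrays, at -1.78 to 0.12 (median -0.74) in exercised fish and -1.18 to 0.28 (median -0.34) in non-exercised fish. Its difference was -0.28 ± 0.29 (adjusted p = 0.639), and neither ligand passed the test.

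For tgfb1a the probe was detected on none of the exercised arrays and on 4 non-exercised arrays, all of slide 1. It ranged from -4.0 to -1.83 (median -2.43) in exercised fish and from -3.19 to -0.57 (median -2.20) in non-exercised fish, without a called difference (adjusted p = 0.518) and with no fold given. Among non-exercised fish the signal was called lower on slide 2, where it was undetected, than on slide 1 (adjusted p = 0.0207 in limma), with no fold given.

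Activin subunits and BMP ligands were at or near background. Of bmp2a, bmp4, bmp5, bmp7a, bmp8a, gdf6b, gdf10a, inhbaa, inhbab and inhbb, only bmp5 was detected for its brightest probe on any array, in a single exercised spot, that of fish 7, which was dropped as an outlier. Of the 4 inhbb probes, 2 were detected on 1 exercised array each. The probes of bmp5 and gdf10a were fitted without exercised fish 7. The adjusted p-values of these genes ran from 0.0545 to 0.818. The lowest was that of bmp4, singled out after its values were seen: all 8 exercised fish lay above the non-exercised mean and 6 above every non-exercised fish, at -3.76 to -1.01 (median -2.77) in exercised fish and -5.0 to -3.26 (median -3.94) in non-exercised fish. Since no spot of bmp4 was detected, no fold is given.

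**Figure D3:**
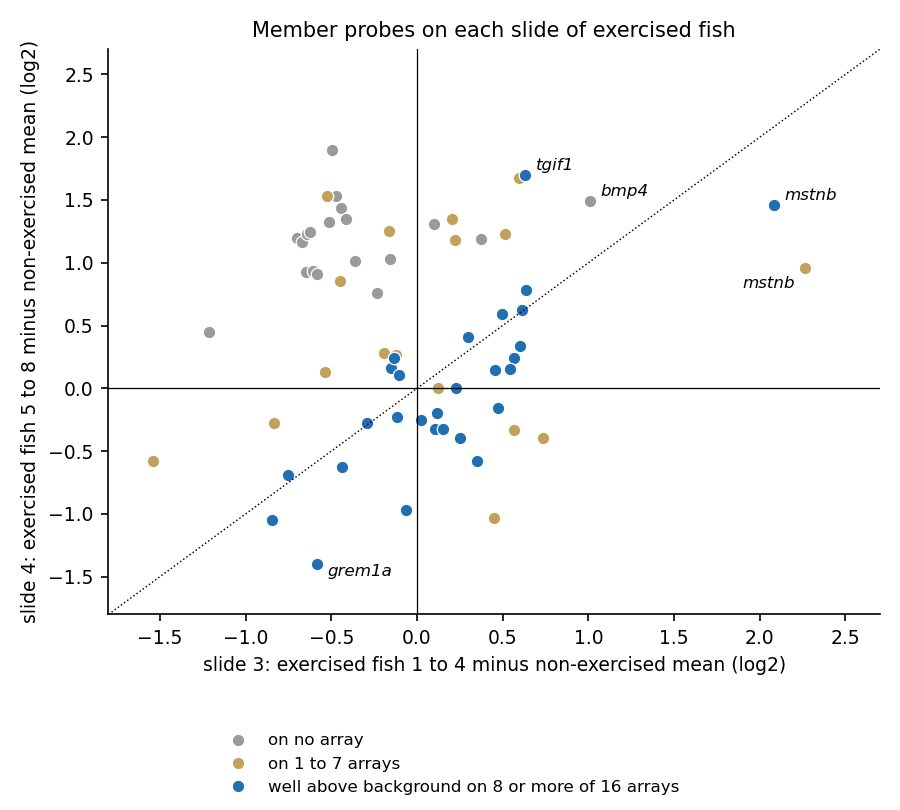
Each of the 64 pathway probes by its log2 difference from the non-exercised mean in the 4 exercised fish of slide 3 (x axis) and in the 4 exercised fish of slide 4 (y axis), with colour for the number of arrays on which it was detected and a dotted line where both slides are equal. Most undetected probes (grey) lie at the upper left, and both mstnb probes lie at the far right; positions of undetected probes are differences between background signals.

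Undetected signals differed between slides over the array as a whole. For the 15 undetected pathway genes the median difference from the non-exercised mean was -0.51 on slide 3 and 1.19 on slide 4, beside -0.55 and 1.24 over the 13602 undetected probes of the array. Negative control spots lay at -2.86 on slide 4, and at -4.66, -4.31 and -3.99 on slides 3, 2 and 1. Between slide 4 and slide 3, both of exercised fish, 17 of the 64 pathway probes were called, where 32.9% of all probes were called. Of those 17, 13 were probes that were undetected throughout, and none of the 28 pathway probes detected on at least 8 arrays was called. The share over all probes detected as often was not computed, so that last count has no background beside it. Against non-exercised fish, slide 4 alone gave 13 of 45 genes called higher and 1 lower, where 23.5% of named genes were called and 19.7% called higher, and none of the 13 had a detected spot that was kept in the fit. Between slide 2 and slide 1, both of non-exercised fish, 3 of 64 were called (fsta, tgfb1a and nog1), where 1.75% of all probes were called.

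Of the secreted antagonists none was called. Follistatin a (fsta), which binds activin and myostatin, had 3 probes detected in both groups, with differences of -0.53 to -0.95 and adjusted p-values of 0.214 to 0.622. The remaining probe was detected on none of the exercised and 4 non-exercised arrays (adjusted p = 0.329, no fold given). Its brightest probe, LOLG322, was detected on 5 exercised and 7 non-exercised arrays. It read -1.73, -0.13, -0.12, -0.48, -0.70, -0.17, -1.64 and -0.70 in exercised fish 1 to 8, and 1.45, 0.90, 0.03, 0.69, 0.18, -2.93, -1.23 and -0.53 in non-exercised fish 1 to 8. The groups overlapped, and the difference was -0.53 ± 0.50 (adjusted p = 0.622).

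The fsta levels also differed between the slides of non-exercised fish. The 4 non-exercised fish of slide 1 lay above all 8 exercised fish with LOLG322, whereas those of slide 2 lay on both sides of the exercised range. For the probe A_15_P114697, which was detected on the 4 arrays of slide 1 and nowhere else, the signal was called lower on slide 2 than on slide 1 (adjusted p = 0.0120, no fold given). For the other 3 fsta probes the same contrast was -1.22 to -1.90 (adjusted p 0.189 to 0.398).

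Gremlin 1a (grem1a), a BMP antagonist, was detected on 6 exercised and 8 non-exercised arrays for its brighter probe. It ranged from -1.12 to 1.56 (median 0.29) in exercised fish and from 0.26 to 2.60 (median 1.20) in non-exercised fish. The difference was -0.99 ± 0.39 (95% confidence interval -1.81 to -0.16, adjusted p = 0.155), and 4 exercised fish lay below every non-exercised fish. It was -0.58 with slide 3 alone (adjusted p = 0.348) and -1.40 with slide 4 alone (adjusted p = 0.0301), and the adjusted p was 0.793 with the slide as a random block. Its other probe had no detected spot that was kept in the fit, and its signal lay in the opposite direction (adjusted p = 0.650). Averaged over both probes the difference was -0.094 (adjusted p = 0.841 in limma). That average joins a detected probe with an undetected one. In exercised fish 7 it rests on the brighter probe alone, as the other spot was dropped, so it does not measure the same thing in every fish.

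Follistatin-like 1a (fstl1a), a secreted glycoprotein, was detected on 7 or 8 arrays of each group with its 3 probes. The brightest ranged from 0.08 to 2.55 (median 1.60) in exercised fish and from -0.24 to 3.62 (median 1.84) in non-exercised fish. The 3 differences lay between -0.12 and 0.11, with adjusted p-values of 0.878 to 0.919. Chordin (chrd) was detected on 3 exercised and 4 non-exercised arrays and differed by 0.06, and nog1 and nog3, which encode noggins, were detected on none. Follistatin b was not analysed here.

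**Figure D4:**
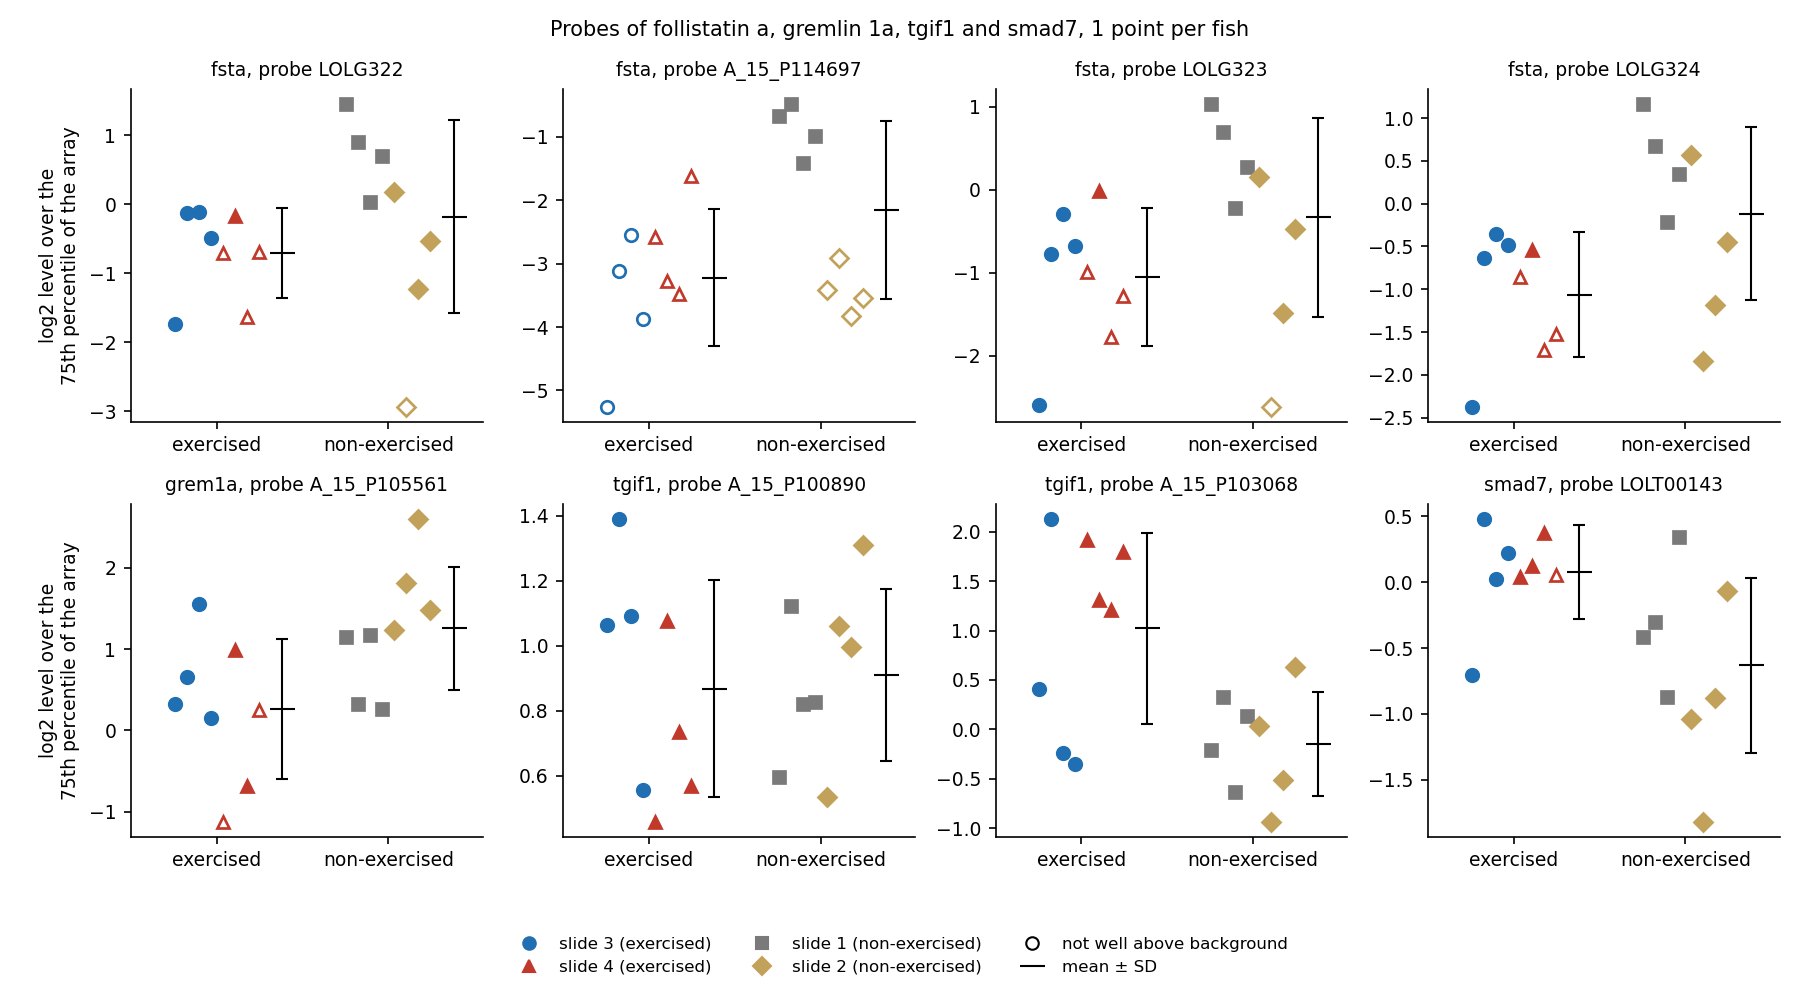
Levels in each fish (y axes, log2 over the 75th percentile of the array) for the 4 probes of fsta, the brighter probe of grem1a, both probes of tgif1 and the second probe of smad7, with exercised fish left of non-exercised fish, symbols for the slide, open symbols where a spot was not detected, and the mean ± SD (n = 8). For A_15_P114697 of fsta the 4 slide 1 fish lie above all the others, and for A_15_P103068 of tgif1 the 4 slide 4 fish read 1.21 to 1.92.

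No receptor gene was called, and the differences of the 4 detected in both groups lay between -0.29 and 0.40. The type II TGF-β receptor tgfbr2b was the best detected, on 7 exercised and 8 non-exercised arrays, at 0.47 to 1.45 (median 0.93) in exercised fish and -0.54 to 1.05 (median 0.60) in non-exercised fish. Its difference of 0.40 ± 0.26 did not pass the test (adjusted p = 0.455). The second tgfbr2b probe was detected on 4 exercised and 2 non-exercised arrays and differed by 0.12 (adjusted p = 0.8545 in limma). By slide that was 0.57 on slide 3 and -0.33 on slide 4, where the probe was undetected. The type I receptor acvrl1 was detected on 6 and 7 arrays and acvr1l, a BMP type I receptor of zebrafish, on 4 and 4, with differences of 0.35 (without exercised fish 8, whose spot was an outlier) and -0.17.

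Receptors for myostatin and activin were dim. The type II receptor acvr2ba, which binds myostatin in mammals, was detected on none of the exercised arrays and 1 non-exercised array, at -4.26 to -1.32 (median -3.13) in exercised fish and -3.96 to -1.34 (median -3.03) in non-exercised fish (adjusted p = 0.778, no fold given). The type I activin receptor acvr1ba was detected on 1 exercised array, and the BMP receptor bmpr1aa on none. The BMP receptor bmpr1ba was detected on 3 exercised and 4 non-exercised arrays, and its 2 probes differed by -0.29 and 0.25 (adjusted p = 0.714 and 0.775), the second without fish 7 of either group. The genes acvr2aa, acvr2ab and acvr2bb were not analysed here.

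The Smads were detected without a called difference. Among the Smads of the TGF-β and myostatin branch, smad3a was detected on 4 exercised and 5 non-exercised arrays and smad3b on 4 and 6, with differences of 0.16 and -0.52 (adjusted p = 0.803 and 0.450). For smad2 the 2 probes were detected on 3 and 3 and on 2 and 2 arrays, and differed by 0.87 ± 1.06 and 0.07 ± 0.27 (adjusted p = 0.676 and 0.888). Of the BMP-branch Smads, smad1 was detected on 3 and 6 arrays and differed by -0.09 (adjusted p = 0.911). The other, smad5, was detected on 7 and 8 arrays, at 0.11 to 1.27 (median 0.22) in exercised fish and 0.06 to 1.22 (median 0.38) in non-exercised fish. Its difference was -0.11 ± 0.25 (adjusted p = 0.799).

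The inhibitory Smads read higher in most exercised fish but did not pass the test. The brighter smad7 probe was detected on 7 and 8 arrays, at -0.23 to 0.74 (median 0.01) in exercised fish and -1.51 to 0.50 (median -0.28) in non-exercised fish. Its difference was 0.47 ± 0.27 (adjusted p = 0.382), and that of the second probe 0.71 ± 0.29 (adjusted p = 0.172), with all 8 and 7 of 8 exercised fish above the non-exercised mean. The smad6b probe was detected on 6 and 7 arrays and differed by 0.62 ± 0.30 (adjusted p = 0.264), with 7 of 8 exercised fish above the non-exercised mean. With brightness as a covariate, the fit chosen after the data had been seen, the adjusted p was 0.0292 for the second smad7 probe. It was 0.0327 for smad6b and 0.0755 for the brighter smad7 probe. That fit called 10.2% of all probes higher, beside 4.58% in the main fit. Over all the alternatives the adjusted p of the brighter smad7 probe ran from 0.0755 to 0.886.

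Nuclear partners that repress Smads were well detected. Probe A_15_P106004 of skia ranged from 0.81 to 2.20 (median 1.77) in exercised fish and from 0.98 to 2.29 (median 1.64) in non-exercised fish, a difference of 0.05 ± 0.25 (adjusted p = 0.910). The brighter skib probe was detected on 7 and 8 arrays, at -1.38 to 0.93 (median 0.42) in exercised fish and -1.31 to 0.87 (median 0.23) in non-exercised fish (difference -0.11 ± 0.37, adjusted p = 0.870). The second skib probe, measured without exercised fish 8, differed by 0.32 (adjusted p = 0.652). Neither ski gene passed the test.

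The 2 probes of tgif1, a homeodomain repressor, gave unlike values although both were detected on all 16 arrays. The brighter, A_15_P100890, ranged from 0.46 to 1.39 (median 0.90) in exercised fish and from 0.54 to 1.31 (median 0.91) in non-exercised fish. Its difference was -0.04 ± 0.22 (95% confidence interval -0.50 to 0.42, adjusted p = 0.921). The other, A_15_P103068, read 0.41, 2.13, -0.24, -0.35, 1.92, 1.31, 1.21 and 1.80 in exercised fish 1 to 8, against -0.93 to 0.63 (median -0.09) in non-exercised fish. Its difference was 1.17 ± 0.38 (95% confidence interval 0.37 to 1.97, adjusted p = 0.0762), at 0.63 on slide 3 and 1.70 on slide 4. Limited to the probes detected on at least 8 arrays, its adjusted p was 0.0390. Over the 14 pathway genes with several probes, undetected ones included, the probes lay in 1 direction for 8 and in opposite directions for 6.

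**Figure D5:**
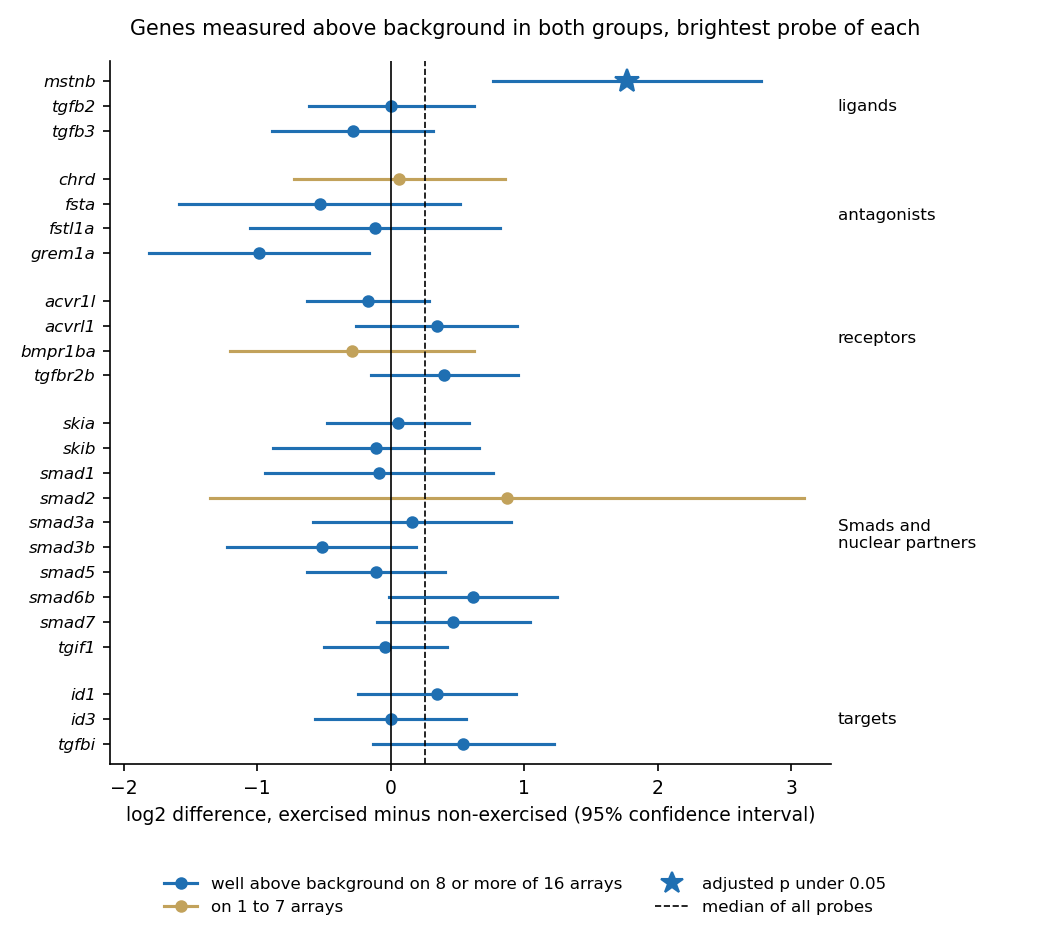
Log2 difference between exercised and non-exercised fish (x axis, exercised minus non-exercised, with the 95% confidence interval) for the brightest probe of the 24 genes detected on at least 1 array in both groups, by role; a star marks an adjusted p under 0.05 and the dashed line the median of all probes, 0.26. Only mstnb, at 1.77, is marked. The dashed line includes undetected probes, and the median over all probes detected on at least 8 arrays was -0.09.

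Of the pathway targets none was called. The BMP target id1, an inhibitor of basic helix-loop-helix factors, was detected on all arrays, at 2.13 to 3.45 (median 2.61) in exercised fish and 1.46 to 2.97 (median 2.61) in non-exercised fish. Its difference was 0.35 ± 0.28 (95% confidence interval -0.24 to 0.94, adjusted p = 0.569). Its relative id3, also detected on every array, ranged from 1.14 to 2.29 (median 1.88) in exercised fish and from 1.00 to 2.44 (median 1.86) in non-exercised fish, and the difference was 0.00 ± 0.27 (95% confidence interval -0.56 to 0.56). For id2a no array was detected, and for the brightest id2b probe 1 non-exercised array was.

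The extracellular matrix gene tgfbi, named for its induction by TGF-β, ranged from 2.44 to 3.79 (median 3.20) in exercised fish and from 1.49 to 4.12 (median 2.48) in non-exercised fish. It was detected on every array, and 7 of 8 exercised fish lay above the non-exercised mean. The difference of 0.54 ± 0.32 did not pass the test (adjusted p = 0.392). The kinase bmp2k had a single detected spot, in exercised fish 7, which was dropped as an outlier.

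A wider list of pathway genes that the symbol families leave out (nodal and lefty ligands, co-receptors, ubiquitin ligases, co-activators, targets and the atrogenes downstream of myostatin in mammals) had 43 genes with a probe. Of these 2 were called higher and none lower, beside 3.21% of named genes called higher, and 13 (30.2%) had an unadjusted p under 0.05, beside 23.0% of named genes. The ubiquitin ligase nedd4l, which in mammals marks Smads and TGF-β receptors for degradation, ranged from -0.06 to 2.43 (median 1.52) in exercised fish and from -1.55 to 0.30 (median -0.45) in non-exercised fish. It was detected on all 16 arrays, 7 exercised fish lay above every non-exercised fish, and the difference was 1.81 ± 0.35 (adjusted p = 0.00412), at 1.74 on slide 3 and 1.89 on slide 4.

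The other called gene was fbxo32, the muscle ubiquitin ligase atrogin-1, with a difference of 2.22 ± 0.59 (adjusted p = 0.0301). It was dim and detected on the 4 arrays of slide 3, none of slide 4 and 1 non-exercised array, and the difference was 3.55 on slide 3. It ranged from -3.70 to 0.85 (median -1.29) in exercised fish and from -4.99 to -1.99 (median -3.90) in non-exercised fish, so the groups overlapped. The genes trim63a and trim63b, for the muscle ubiquitin ligase MuRF1, were detected on all 16 arrays and did not pass the test, with differences of 0.23 ± 0.32 (adjusted p = 0.698) for trim63a and 1.02 ± 0.36 (adjusted p = 0.103) for trim63b.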

How the data were processed

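RNA from fast muscle of each fish (8 per group) had been hybridised to its own 1-colour array with 43803 non-control probes. The authors made the deposited spot intensities with Agilent Feature Extraction (version 10.7.3.1, from the submitters' processing notes), which subtracts background and sets the detection flag. The deposited table of called probes, with the authors' p-values, fold changes and log2 values, was not used, nor were its 16 per-sample columns.

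The log2 processed signal of each array was shifted by its 75th percentile over the non-control probes. Outlier-flagged spots were dropped (49 to 892 per array) and none was saturated. RefSeq accessions gave 1 symbol to 9104 probes and none to 34699. Groups were compared with lmFit and eBayes of limma 3.58.1 (R 4.3.3, with statmod 1.5.0), with Benjamini-Hochberg adjustment over all probes, and the fit was tested on simulated data. Correlations and plots were made in Python 3.11.15 (scipy 1.17.1, numpy 2.4.6, matplotlib 3.10.9, pandas 2.3.3). Between 21.1% and 54.0% of probes were detected on an array, which limits the precision for dim probes, as the number of arrays does for all.

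Members and lists were chosen with earlier results of these data known. Values are given in full for called members, for the myostatin, follistatin, gdf11, type II activin receptor and TGF-β genes, and for members whose brightest probe was detected on at least 14 arrays. Others singled out were chosen after their values were seen. No fold is given where a group had no detected array.

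Alternatives were 5 other background corrections and scalings (normexp with an offset of 50 among them), filters on dim probes, the methods' t-test, each exercised slide alone, slide and replicate number as blocks, array weights, averaging the probes of a gene, each fish left out and, added after seeing the data, array brightness as a covariate.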

Additional observations from a re-analysis of the deposited data

Results flagged for a closer look

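Among the 19 pathway genes given in full, 38 groups of 8 fish were searched for a fish far from the others, and 5 were found, where chance gives about 1 in 20 groups. In 4 of the 5 the fish was exercised fish 1, the fish with the low fast muscle markers. These were skia at 0.814 (next fish 1.74), smad5 at 1.27 (next 0.291), tgfb1a at -3.99 (next -2.82) and tgfb2 at -2.55 (next -1.30). The tgfb1a spot was undetected. The other was non-exercised fish 8, with tgfb2 at -0.337 (next -1.01).

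Without exercised fish 1 the differences were 0.19 for skia (adjusted p = 0.581), -0.24 for smad5 (adjusted p = 0.446) and 0.21 for tgfb2 (adjusted p = 0.565) in limma. For tgfb1a, undetected in exercised fish, the adjusted p was 0.524 in limma and no fold is given. None of these genes was called with or without exercised fish 1.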

How the results depend on the processing

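For the 19 genes given in full, 493 of 572 alternative values kept direction and side of the threshold, 62 turned sign, 15 were no longer called and 2 became called. The counts of called members were small, so 1 probe moves them by a large ratio. By gene, 1 member was higher in the analysis as reported, against 2 with cyclic loess, 3 with array brightness as a covariate and 2 by the methods' t-test at an unadjusted p under 0.01. It was 0 by that t-test after adjustment, with the slide as a random block, with slide 3 alone, with array weights and with the mean over probes. Of all named genes the adjusted t-test called 3.33% higher, the slide block 0.0504%, slide 3 alone 2% and array weights 3.8%. The share over all named genes was not computed for the unadjusted t-test or for the mean over probes. With slide 4 alone 13 were higher and 1 was lower, where 19.7% and 3.78% of all named genes were. That share was 5.58% higher with cyclic loess and 7.96% with brightness. Leaving out 1 fish gave 0 to 2 genes, where 1.80% to 4.42% of all named genes were called higher. By probe, where 1 of 64 was higher, the count was 4 with cyclic loess, 7 with brightness as a covariate and 3 by the unadjusted t-test. It was 2 of the 28 probes detected on at least 8 arrays and 2 of the 9 detected on all 16. Over all probes 4.58% were called higher in the main fit, 6.1% with cyclic loess and 10.2% with brightness. With the filters for 8 and 16 arrays these shares were 6.23% and 8.49%. The count was 0 by the adjusted t-test, with the slide block, with slide 3 alone and with array weights. Of all probes these settings called 4.51%, 0.187%, 3% and 5.25% higher, in that order. No share over all probes was computed for the unadjusted t-test. With slide 4 alone 20 probes were higher and 1 lower (33.2% and 2.50% of all probes). Leaving out 1 fish gave 0 to 3 probes, where 3.09% to 6.58% of all probes were called higher.

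The mstnb difference stayed at 1.77 by the t-test of the methods (adjusted p = 0.0541) and with the slide block (0.541), and was 2.08 for slide 3 alone (0.0731), 1.46 for slide 4 alone (0.0674), 1.36 with array weights (0.0791) and 1.69 as the mean over probes (0.0526), none past the threshold. It ranged from 1.53 to 2.01 with 1 fish left out. Over the alternatives its adjusted p in limma and the t-test ran from 0.00230 to 0.541. With the replicate number as a block, the adjusted p of mstnb was 0.00569 at 1.77 and both its probes were called, the second at an adjusted p of 0.0112. The numbers do not pair fish: same-numbered fish correlated at 0.029 to 0.415 over 8 pairs, and 3 of 8 matched their own number best.

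None of the differences that turned sign passed the threshold, and the cause was not tested. Values of gdf11, mstna and acvr2ba are differences between signals at background, not folds. With normexp the difference was -0.028 for gdf11, -0.0032 for id3, -0.048 for skia and -0.015 for tgfb2. Without background correction it was -0.12 for gdf11, -0.0088 for id3, -0.055 for skia and -0.044 for tgfb2. With a median shift it was -0.25 for id3, -0.20 for skia and -0.24 for tgfb2, and with quantile normalization -0.16 for gdf11 and -0.012 for mstna. Cyclic loess gave 0.018 for fstl1a, -0.12 for gdf11, -0.060 for mstna, 0.0095 for smad5 and 0.092 for tgif1. Slide 3 alone gave 0.35 for fstl1a, -0.23 for gdf11, -0.10 for id3, -0.62 for mstna, -0.13 for skia, 0.10 for skib, 0.026 for smad5, -0.15 for tgfb2 and 0.12 for tgif1. Slide 4 alone gave 0.13 for acvr2ba, and calls for grem1a (-1.40) and the undetected mstna. Array weights gave -0.027 for gdf11, -0.051 for skia and 0.0074 for tgif1. The mean over probes gave 0.20 for skib and 0.56 for tgif1, and brightness as a covariate -0.0041 for id3 and 0.071 for skib. In the skib mean, whose probes differed by -0.11 and 0.32, exercised fish 8 entered with the brighter probe alone, as its other spot was dropped. With 1 fish left out, the difference ranged from -0.45 to 0.011 for acvr2ba, -0.39 to 0.16 for fstl1a, -0.11 to 0.094 for id3, -0.049 to 0.19 for skia, -0.32 to 0.089 for skib, -0.10 to 0.21 for tgfb2 and -0.12 to 0.017 for tgif1.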

Other observations

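The smad2 probe A_15_P101086 had the largest spread of the 64 pathway probes, and was singled out after its values were seen. It read 5.00 in exercised fish 8 and 1.27 in exercised fish 1, against -3.65 to -1.68 in the other exercised fish. In non-exercised fish it read 0.96 in fish 6 and -3.54 to -1.77 in the others. The pooled SD within groups was 2.42, above that of 99.4% of all probes. The second smad2 probe, A_15_P119732, read -2.12 in exercised fish 8 and -2.07 in exercised fish 1, within its range of -3.19 to -1.41 in exercised fish, and -1.72 in non-exercised fish 6, the highest of its group.

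The BMP receptor bmpr1ba was highest in exercised fish 1 (0.33 and 0.07 with its 2 probes) and non-exercised fish 6 (0.03 and -0.06). These are the fish with the brightest array of their group, at 10.69 and 10.42. The other exercised fish read -2.83 to -1.07, and the other non-exercised fish -3.20 to -0.65, over both probes, with fish 7 of each group missing from the second. Both values were picked after the data had been seen.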
